A study of Mus musculus with 6 samples.

Results

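The genes described here encode the machinery that brings a growing protein to the endoplasmic reticulum (ER), moves it across or into the ER membrane, removes its signal peptide and attaches N-linked glycans to it. They were taken from the count table by gene symbol, and all 37 listed genes were found among the 54532 genes of the table. They comprise 6 genes of the signal recognition particle (SRP), 2 of the SRP receptor, 7 of the translocon, 4 of the translocon-associated protein (TRAP) complex, 5 of signal peptidase, 9 of oligosaccharyltransferase (OST) and 4 of early glycan assembly. The cells were leptotene/zygotene (L/Z) spermatocytes, which have just entered meiotic prophase, and were isolated by FACS from the testes of mice aged 12 days postpartum (dpp). Control males, labelled wild type and described by the study as littermates, gave 3 libraries, and Eef1g-cKO males gave 3. In the latter, internal exons of a floxed Eef1g allele on a C57BL/6J background are removed by Stra8-GFPCre, a recombinase that acts in male germ cells from the spermatogonial stage onwards. The Eef1g product, eEF1G, is the gamma subunit of eEF1, which delivers aminoacyl-tRNA to the ribosome. The labels do not say whether libraries of a group came from separate animals or from pools, so the p-values measure only the spread between these libraries.

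In the secretory pathway, SRP binds the signal sequence as it leaves the ribosome, slows elongation, and docks the ribosome at the ER through the SRP receptor. The nascent chain then enters the Sec61 channel, signal peptidase cleaves the signal peptide, and OST transfers a preassembled glycan from the lipid dolichol to asparagine residues. Mammals have alternative OST complexes: the catalytic subunit STT3A acts together with the translocon as the chain emerges, whereas STT3B, with either TUSC3 or MAGT1 as its oxidoreductase partner, modifies sites that were skipped. Germ cells use this route for the glycoproteins of their surface and, later, of the acrosome.

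Before the values, promoters of the members are shown because several ER genes are known to share the ER stress response element (ERSE), a CCAAT box followed at a fixed distance by CCACG. RefSeq promoter windows of 250 bases before the transcription start (GRCm38.p6) were given for 26 of the 37 members. The full ERSE, searched on both strands, was in 0 of these 26 and in 0.13% of the windows of 27025 genes. ERSE-II, UPRE (TGACGTGG) and CARE (TGATGNAAT) were in 0 of the 26 members as well, against 0.037%, 0.603% and 0.91% of all genes. The parts of the element were common: CCAAT was in 12 of 26 members (46.2%) against 37.5% of all genes, and CCACG in 13 of 26 (50%) against 31.0%. Of the members described below as higher in Eef1g-cKO cells, 4 had a window. CCAAT was in 3 of these 4 and in 9 of the 22 other members with a window, and CCACG in 2 of 4 and 11 of 22. The Srp14 window held neither part, and Rpn2 held CCAAT without CCACG. The Sec63 window (chr10:42761246-42761495, plus strand) and the Stt3b window (chr9:115310469-115310718, minus strand) held both parts and are printed 5′ to 3′, with every CCAAT and CCACG, or its reverse complement ATTGG and CGTGG, in capitals.
Sec63: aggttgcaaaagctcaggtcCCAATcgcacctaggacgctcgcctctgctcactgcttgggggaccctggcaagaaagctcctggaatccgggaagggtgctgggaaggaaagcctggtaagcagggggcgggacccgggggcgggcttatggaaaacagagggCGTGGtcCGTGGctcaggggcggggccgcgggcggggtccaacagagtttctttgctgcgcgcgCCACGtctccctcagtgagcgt
Stt3b: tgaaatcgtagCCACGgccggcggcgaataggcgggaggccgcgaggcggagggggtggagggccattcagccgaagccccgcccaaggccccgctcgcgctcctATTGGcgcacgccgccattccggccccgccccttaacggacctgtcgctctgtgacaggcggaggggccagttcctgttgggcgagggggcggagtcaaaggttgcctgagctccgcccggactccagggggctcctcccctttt
In Sec63 the CCAAT lies far upstream of the nearest CGTGG, and in Stt3b the CCACG precedes the ATTGG, so neither pair has the spacing of the full element. A match describes these letters alone, and the absence of one says nothing about any factor.

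Libraries held between 763133 and 2617648 reads assigned to genes, and Eef1g-cKO replicate 3 was the shallowest. Levels are given as CPM, a gene's share of the reads of its library, as reads per 1000000, after scaling by the trimmed mean of M-values (TMM). At these depths 3 reads, the limit that a count of 0 allows, corresponded to between 1.18 and 4.63 CPM. Reads were amplified without molecular identifiers, so this limit covers counting error only. Eef1g itself was at 222, 226 and 212 CPM in the control libraries and at 139, 151 and 119 CPM in the Eef1g-cKO libraries, a log2 fold change of −0.68 ± 0.20 (SE) with an adjusted p of 0.029. Every Eef1g-cKO library lay below every control library, in the direction of its label, and reads from the exons that remain are included; the call was lost without control replicate 1, 2 or 3 or Eef1g-cKO replicate 1 (adjusted p = 0.11, 0.12, 0.092 and 0.084). The sorted cells carried the RNAs of their labelled stage: the summed level of 10 L/Z markers was 9834 to 11279 CPM in control and 21243 to 28186 CPM in Eef1g-cKO libraries, with 6 of 9 tested markers higher. Spermatogonial markers ran the other way, at 1935 to 2355 CPM against 953 to 1203 CPM, with 6 of 6 tested markers lower. Sertoli cell markers summed to 132 to 367 CPM against 26.3 to 73.3 CPM (2 of 4 tested lower), and peritubular and stromal cell markers to 188 to 322 against 23.2 to 79.2 CPM (4 of 5 tested lower). Of these, Cldn11 and Col3a1 passed the filter on low counts through their control libraries alone, so their calls describe that selection. Blood cell and macrophage markers overlapped, at 6.72 to 77.9 against 3.23 to 75.7 CPM, with 0 called, and 0 of 6 Leydig cell markers could be tested (8.40 to 10.7 against 1.57 to 6.47 CPM). Markers of pachytene and later germ cells summed to 141 to 160 CPM against 102 to 132 CPM, most of it Tbpl1, with 1 of 3 tested lower. That gene, Piwil1, had 34, 22 and 30 reads against 0, 1 and 0 and also passed the filter through control libraries alone. Among the markers of these sets, Acrv1, Acr and Adam3 (pachytene and later germ cells), Cyp17a1, Hsd3b1 and Hsd3b6 (Leydig cells) and Cd68 and Csf1r (macrophages) had 0 reads in all libraries. Amh, Gata4 and Dhh (Sertoli cells), Nanos3 and Lin28a (spermatogonia), Ccna1, Cyp11a1, Insl3, Adgre1 and Lyz2 had 0 reads in the Eef1g-cKO libraries only. Of these, Lin28a had 18, 5 and 13 reads in control libraries, and the others had at most 7 in any library, so few reads stand behind these zeros. These marker levels move with genotype beside every result below, and their part in the results was not tested. In bulk libraries, fewer cells of a type and less RNA per cell cannot be told apart.

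The 37 genes together held 5028 to 19281 reads of a library, with few reads for Alg1, Alg2, Dpagt1 and Srp54a. Their summed level was 6311, 6051 and 6089 CPM in control libraries and 7365, 7560 and 7766 CPM in Eef1g-cKO libraries, and the groups did not overlap. This gap depends on TMM scaling: as a share of unscaled library totals the sums were 0.653%, 0.628% and 0.648% against 0.696%, 0.737% and 0.659%, with Eef1g-cKO replicate 3 now the lowest of its group. Genes were tested with the quasi-likelihood F test of edgeR, and called higher or lower at a p under 0.05 after Benjamini-Hochberg adjustment over all 8513 genes with enough reads. All adjusted p-values below come from this test. Among the members, 35 could be tested, and Alg1 and Alg2 had too few reads. Of the 35, 7 were higher in Eef1g-cKO cells, against a background of 7.8% of all tested genes, and 0 were lower, against 6.01%. The 7 were Tusc3, Srp14, Ostc, Stt3b, Srp19, Sec63 and Rpn2, and 4 of them encode OST subunits. Only Tusc3 also passed an absolute log2 fold change of 1, a limit that 3.42% of all tested genes passed on the higher side and 4.96% on the lower. Beside the 0 lower genes, 2 members (Tram1 and Sec11a) were lower at an unadjusted p under 0.05, DESeq2 also called 0, and limma-voom called 1 (Srpr). Of all tested genes, DESeq2 called 7.19% lower and limma-voom 7.69%.

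The 28 members that did not pass had 12 positive and 16 negative log2 fold changes. Over all 35 tested members 19 log2 fold changes were positive and 16 negative, with a median of 0.20, while 47.5% of all tested genes were positive and their median was −0.05. All 3 Eef1g-cKO libraries lay above all 3 control libraries for 11 members (background 16.4%), and below them for 4 (background 18.1%). Of these 4, Dpagt1 passed the filter on low counts through its control libraries alone, so its separation describes that selection. The count of higher members depended on scaling and on single libraries: upper-quartile scaling gave 3 higher and 1 lower, and library totals alone gave 1 and 1. Across all genes the same settings changed 664 higher and 512 lower calls to 463 and 639, and to 333 and 643. Leaving out control replicate 1, 2 or 3 gave 3 higher members each time, with 385, 374 and 384 higher genes in all. The median of the members was −0.037 without Eef1g-cKO replicate 2.

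**Figure D1:**
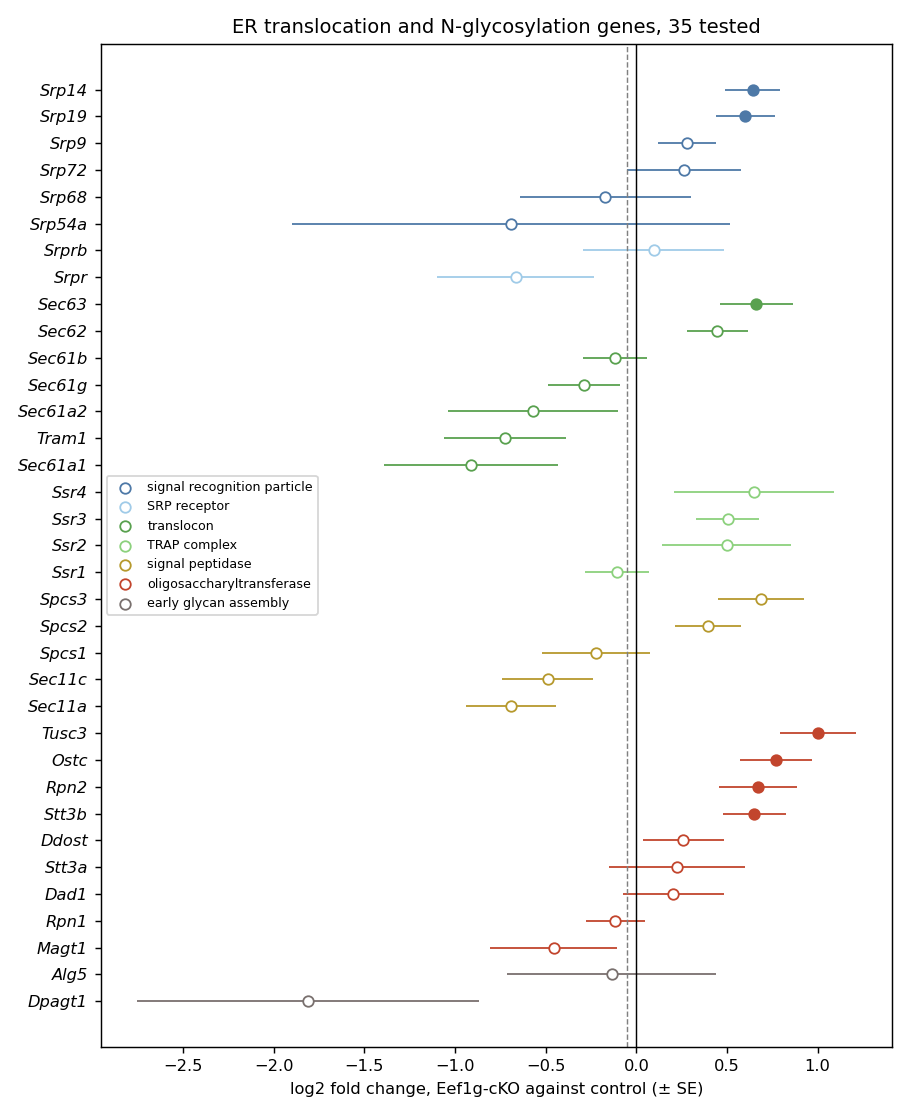
Log2 fold change in Eef1g-cKO against control L/Z spermatocytes for the 35 tested members, coloured by role and ordered within it; bars are ± 1 SE, filled points have an adjusted p under 0.05, the solid line is 0 and the dashed line is the median of all tested genes (−0.05). The 7 filled points lie between 0.60 (Srp19) and 1.00 (Tusc3), and the widest bars belong to Srp54a and Dpagt1, which had few reads.

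Among the SRP genes, 2 of 6 rose in Eef1g-cKO cells (7.8% of all tested genes did). Srp14 encodes a protein of the Alu domain, the end of SRP that slows elongation at the ribosome (chr2:118475850-118479711, minus strand, GRCm38). Its level was 478, 468 and 430 CPM in control libraries and 700, 779 and 666 CPM in Eef1g-cKO libraries. The groups did not overlap (log2 fold change 0.64 ± 0.15 SE, adjusted p = 0.0080). Srp19, on chromosome 18, encodes the protein that folds the SRP RNA so that the signal-binding subunit can join. It was at 297, 277 and 312 CPM in control libraries and at 449, 481 and 412 CPM in Eef1g-cKO libraries (log2 fold change 0.60 ± 0.16, adjusted p = 0.018). Again no library of one group entered the range of the other. The call for Srp14 was lost in 2 of 17 alternative fits, without control replicate 3 (adjusted p = 0.058) and with library totals alone (0.076). That for Srp19 was lost in 8 of 17. Among these were the fits without control replicate 1, 2 or 3 (0.067, 0.10 and 0.059), upper-quartile scaling (0.058) and library totals alone (0.13).

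The other SRP genes did not pass. Srp9, the partner of Srp14 in the Alu domain, was at 439, 347 and 413 CPM in control and 468, 483 and 504 CPM in Eef1g-cKO libraries, which did not overlap, with a log2 fold change of 0.28 ± 0.16 (adjusted p = 0.28). Srp72 and Srp68 encode the pair that binds the opposite end of the SRP RNA, and had log2 fold changes of 0.26 and −0.17. Srp54a, one gene for the GTPase subunit that grips the signal sequence, had 0, 23 and 20 reads in control libraries and 15, 0 and 2 in Eef1g-cKO libraries. Near-identical copies lie close to it on chromosome 12, so reads can be split among them and this value is uncertain. The SRP receptor genes Srpr and Srprb had log2 fold changes of −0.67 ± 0.43 and 0.09 ± 0.39. In Srpr, which encodes the receptor GTPase, the control libraries lay between 45.8 and 74.0 CPM, and Eef1g-cKO replicate 1 was at 12.1 CPM while the other two were at 53.7 and 43.2 CPM.

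In the translocon, Sec63 was the 1 gene of 7 that rose, against the same 7.8% of all tested genes. Sec63 is a membrane protein whose J domain brings the chaperone BiP to the channel (chr10:42761496-42832514, plus strand; exons of the opposite-strand gene Gm26860 overlap it, and strand use in counting is not stated). Its level was 151, 126 and 135 CPM in control libraries and 236, 191 and 226 CPM in Eef1g-cKO libraries. All Eef1g-cKO libraries were above all control libraries (log2 fold change 0.66 ± 0.20, adjusted p = 0.035). The call was lost in 10 of 17 alternative fits, among them those without control replicate 1, 2 or 3 or Eef1g-cKO replicate 1 (adjusted p = 0.071, 0.15, 0.13 and 0.10). A correction for GC content also removed the call for Sec63, at a log2 fold change of 0.42 (adjusted p = 0.21). Sec62, its partner in post-translational translocation, was at 1012, 870 and 804 CPM in control and 1064, 1045 and 1558 CPM in Eef1g-cKO libraries. These did not overlap either, but the log2 fold change of 0.45 ± 0.17 did not pass (adjusted p = 0.086, and 0.044 without Eef1g-cKO replicate 2). A correction for GC content brought it to 0.12 (adjusted p = 0.72). The genes of the channel itself did not pass. Sec61a1, a gene for the pore, was at 30.5, 32.0 and 27.4 CPM in control libraries and at 15.4, 21.2 and 9.27 CPM in Eef1g-cKO libraries (log2 fold change −0.91 ± 0.48, adjusted p = 0.23). Every Eef1g-cKO library was below every control library, but the lowest rested on 6 reads. The small channel subunits Sec61b and Sec61g had log2 fold changes of −0.12 ± 0.17 and −0.29 ± 0.20, and a correction for GC content turned that of Sec61b to 0.30. Tram1, which helps chains insert next to the channel, had −0.72 ± 0.34 with overlapping groups (adjusted p = 0.17).

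None of the 4 TRAP genes or the 5 signal peptidase genes passed. TRAP helps some signal sequences open the channel and is also part of the glycosylating translocon. Its gene Ssr3 came closest, at 393, 431 and 377 CPM in control and 599, 445 and 666 CPM in Eef1g-cKO libraries (log2 fold change 0.50 ± 0.17, adjusted p = 0.060). The groups did not overlap, and without Eef1g-cKO replicate 2, the lowest of its group, the adjusted p was 0.015. With the correction for GC content, however, the log2 fold change of Ssr3 was 0.18 (adjusted p = 0.57). Ssr1, Ssr2 and Ssr4 had −0.11 ± 0.18, 0.50 ± 0.36 and 0.65 ± 0.44, and Ssr4 was at 74.4 CPM in Eef1g-cKO replicate 1 with every other library between 23.7 and 32.5 CPM. Within signal peptidase the values were divided, and the accessory gene Spcs1 had −0.22 ± 0.30 with overlapping groups. The catalytic genes Sec11a and Sec11c were lower in every Eef1g-cKO library than in any control library, with log2 fold changes of −0.69 ± 0.25 (adjusted p = 0.072) and −0.49 ± 0.25 (adjusted p = 0.22). The other accessory genes, Spcs2 and Spcs3, were higher in every Eef1g-cKO library, with 0.40 ± 0.18 (adjusted p = 0.16) and 0.69 ± 0.24 (adjusted p = 0.062). Spcs2 reached 0.048 without Eef1g-cKO replicate 3, and Spcs3 reached 0.037 without Eef1g-cKO replicate 1. With the correction for GC content their log2 fold changes were 0.36 (adjusted p = 0.22) and 0.38 (adjusted p = 0.33). Sec11a shares exon sequence on its own strand with Nmb, and Spcs2 has a named pseudogene, so reads of these may not be fully separated.

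Of the 9 OST genes, 4 were higher and 0 lower, against 7.8% and 6.01% of all tested genes, and the higher count was 2 with upper-quartile scaling and 1 with library totals. Tusc3, an oxidoreductase subunit of the STT3B complex (chr8:39005845-39165114, plus strand), showed the largest rise. It was at 105, 117 and 116 CPM in control libraries and at 271, 202 and 205 CPM in Eef1g-cKO libraries. This is a 2.00-fold difference (log2 fold change 1.00 ± 0.21, adjusted p = 0.0036), and Tusc3 stayed under an adjusted p of 0.05 in all 17 alternative fits. Stt3b, the catalytic subunit of the same complex (chr9:115242581-115310421, minus strand), was at 197, 206 and 233 CPM in control libraries and at 327, 354 and 318 CPM in Eef1g-cKO libraries. Its groups did not overlap (log2 fold change 0.65 ± 0.18, adjusted p = 0.018). Ostc, a small subunit that links the STT3A complex to the channel (chr3:130695912-130709444, minus strand), was at 138, 193 and 193 CPM in control and 321, 311 and 261 CPM in Eef1g-cKO libraries. The lowest Eef1g-cKO library lay above the highest control library (log2 fold change 0.77 ± 0.20, adjusted p = 0.013). With libraries scaled by their totals alone, Tusc3 was the 1 OST gene still called, and Ostc and Stt3b had adjusted p-values of 0.083 and 0.12. The call for Stt3b was lost in 5 of 17 alternative fits, among them those without control replicate 1 or 2 (0.084 each). That for Ostc was lost in 3 of 17, among them the fit without control replicate 1 (0.082).

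Rpn2, a subunit common to both complexes (chr2:157279017-157326319, plus strand; exons of the opposite-strand gene Mroh8 overlap it), was the only higher member whose groups overlapped. It was at 256, 163 and 193 CPM in control libraries and at 246, 335 and 395 CPM in Eef1g-cKO libraries, with control replicate 1 above Eef1g-cKO replicate 1 (log2 fold change 0.67 ± 0.21, adjusted p = 0.044). The call was lost in 9 of 17 alternative fits, among them those without control replicate 2 (adjusted p = 0.20) or 3 (0.15) and those without Eef1g-cKO replicate 2 (0.079) or 3 (0.065). The 5 remaining OST genes did not pass. The shared subunits Rpn1, Ddost and Dad1 had log2 fold changes of −0.12 ± 0.16, 0.26 ± 0.23 and 0.20 ± 0.28, and Stt3a had 0.22 ± 0.37. Magt1, the alternative to Tusc3, was at 83.2, 69.3 and 66.1 CPM in control and 63.1, 28.2 and 72.6 CPM in Eef1g-cKO libraries, a log2 fold change of −0.46 ± 0.35 (adjusted p = 0.43).

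**Figure D2:**
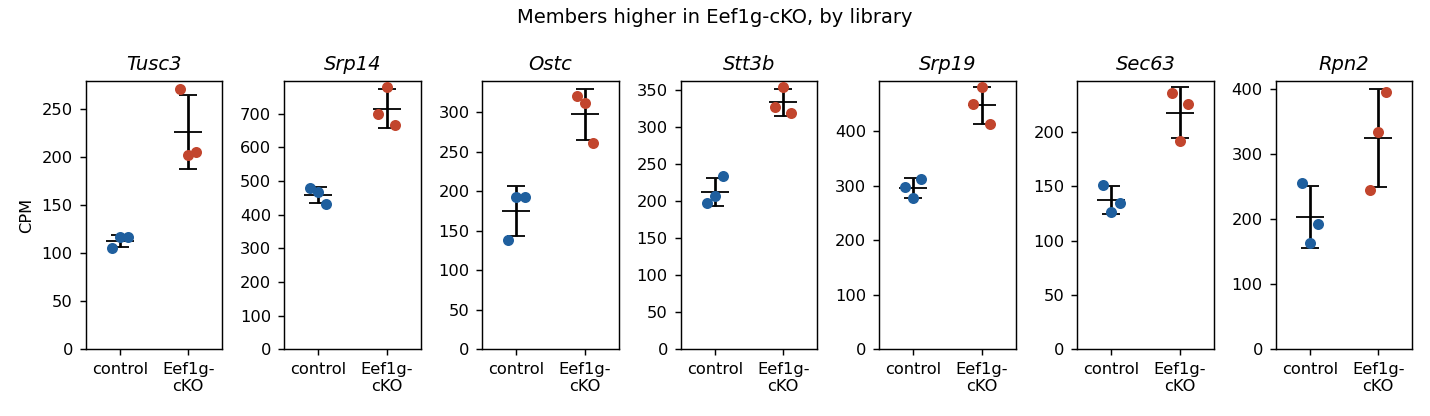
CPM of the 7 higher members in each library, with control and Eef1g-cKO libraries as points and the group mean ± SD as a bar; each axis starts at 0. In 6 of the panels every Eef1g-cKO point lies above every control point; in Rpn2 the control library at 256 CPM lies above the Eef1g-cKO library at 246 CPM.

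Of the members, 4 pairs encode alternative versions of a subunit, and the balance within each pair was compared between genotypes. The measure was the log2 ratio of CPM per kilobase of gene length, which does not depend on how libraries are scaled. The test was a 2-sided exact permutation test, which with 3 libraries against 3 cannot go below p = 0.1. Tusc3 over Magt1 gave log2 ratios of 0.79, 1.20 and 1.26 in control libraries and of 2.55, 3.29 and 1.95 in Eef1g-cKO libraries. All Eef1g-cKO ratios lay above all control ratios, by 1.51 on average, at the smallest p this design allows (exact p = 0.1, adjusted over the 4 pairs 0.2). Per kilobase, Tusc3 was the more abundant of the pair in all 6 libraries, and its excess was wider in Eef1g-cKO cells. For the catalytic subunits, Stt3b over Stt3a gave 2.87, 2.61 and 2.42 in control libraries and 4.35, 2.76 and 2.54 in Eef1g-cKO libraries. The mean difference of 0.58 (exact p = 0.5, adjusted 0.5) rested on Eef1g-cKO replicate 1, where Stt3a was lowest, and was 0.017 without it. Sec11c over Sec11a differed by 0.19 with no overlap (exact p = 0.1, adjusted 0.2), a small shift because both genes were lower in every Eef1g-cKO library. Sec61a2 over Sec61a1 gave −0.24, 0.49 and 1.17 in control libraries and 0.83, 0.69 and 1.56 in Eef1g-cKO libraries, which overlapped (difference 0.55, exact p = 0.4, adjusted 0.5). Sec61a2 was at 17.6, 30.4 and 42.0 CPM in control and 18.6, 23.1 and 18.5 CPM in Eef1g-cKO libraries, a log2 fold change of −0.57 ± 0.47.

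**Figure D3:**
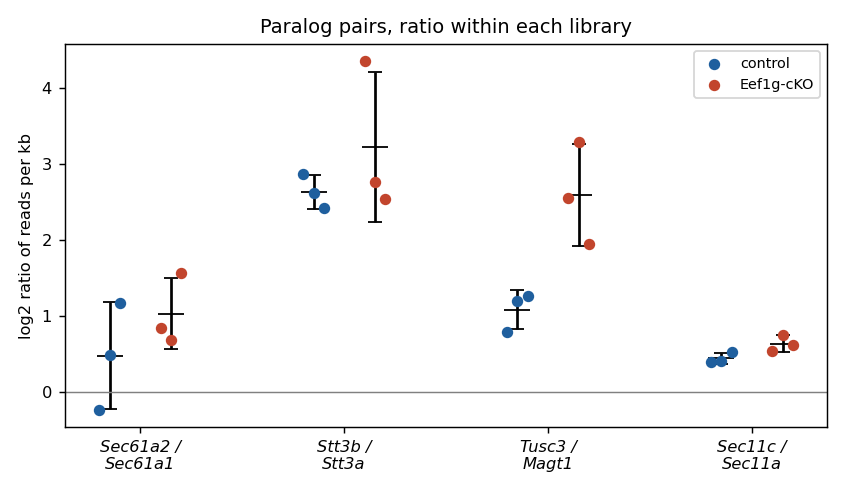
Log2 ratio of CPM per kilobase within 4 pairs of alternative subunits, 1 point a library. The Tusc3/Magt1 points of Eef1g-cKO libraries (1.95 to 3.29) lie above those of control libraries (0.79 to 1.26), and a single Eef1g-cKO library stands apart for Stt3b/Stt3a (4.35).

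The genes of early glycan assembly had summed levels of 33.6 to 46.7 CPM in control and 18.5 to 30.2 CPM in Eef1g-cKO libraries. Dpagt1, whose enzyme starts the glycan on dolichol, had 12, 26 and 14 reads in control libraries and 2, 3 and 5 reads in Eef1g-cKO libraries. It entered the test only through its control libraries, and its log2 fold change of −1.81 ± 0.94 did not pass (adjusted p = 0.22). The mannosyltransferase genes Alg1 and Alg2, not tested, had 0 to 6 reads and 0 to 19 reads in a library, and for Alg2 the counts were 6, 19 and 15 against 0, 10 and 0. At this depth a difference in either could not be assessed. Alg5, whose enzyme makes the glucose donor, had a log2 fold change of −0.14 ± 0.58.

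Levels of the members were set side by side only per kilobase of gene length. In control cells the mean of Srp14 was highest, at 384 CPM per kilobase, followed by Sec61b (226), Sec62 (206), Sec61g (118), Ssr3 (95.9), Rpn1 (91.8) and Srp19 (81.4). At the other end lay Sec61a1 (4.46), Dpagt1 (2.98), Alg2 (2.22), Srp54a (1.46) and Alg1 (1.07). Genes of a single complex therefore differed widely in this measure: within the channel, Sec61b stood far above the pore genes Sec61a1 and Sec61a2 (6.56). The length used is fixed for each gene and is not that of the transcripts present, so comparisons between genes are approximate. In Eef1g-cKO cells Srp14 again came first (598), with Sec62 (281), Sec61b (209), Ssr3 (137) and Srp19 (123) next. In control cells the levels of Sec61b and Sec62 overlapped across libraries.

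**Figure D4:**
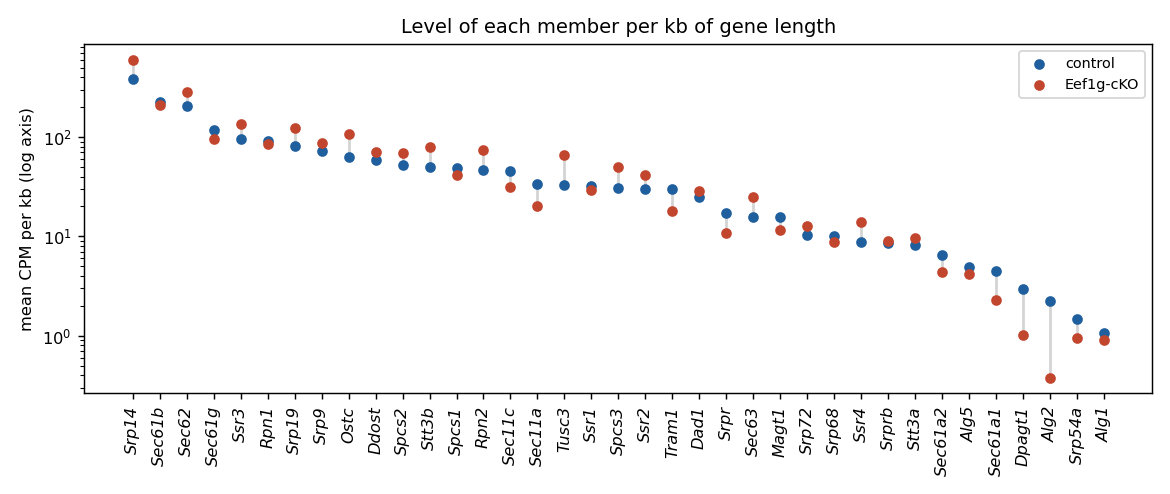
Mean level of each member in control and Eef1g-cKO cells, as CPM per kilobase on a log axis. Levels span from 0.379 (Alg2) to 598 (Srp14), both in Eef1g-cKO cells, and the grey line joins the means of the 2 groups for a gene.

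Other genes of the pathway were taken from a list of 66, of which 50 could be tested. In Eef1g-cKO cells 5 were higher (10%, against 7.8% of all tested genes) and 2 lower (4%, against 6.01%), shares close to the background that say nothing particular about this list. The higher ones included both lectin chaperones that hold glycoproteins during folding. Calr, in the ER lumen, was at 444, 424 and 410 CPM in control libraries and at 615, 692 and 707 CPM in Eef1g-cKO libraries (log2 fold change 0.66 ± 0.15, adjusted p = 0.0070). Canx, its membrane counterpart, was at 453, 446 and 499 CPM against 697, 742 and 635 CPM (0.57 ± 0.15, adjusted p = 0.016). Neither gene's groups overlapped, but the call for Canx was lost in 9 of 17 alternative fits. Of 9 tested genes of glycan trimming and lectin quality control, Calr and Canx were the 2 that passed. The log2 fold changes of 6 of the 9 were negative, and their median was −0.13. Uap1, whose enzyme makes the N-acetylglucosamine donor, was at 95.4, 125 and 134 CPM against 205, 189 and 222 CPM (0.79 ± 0.22, adjusted p = 0.019). Tmco1, an ER channel protein found with the translocon, was at 192, 226 and 233 CPM against 424, 339 and 278 CPM (0.68 ± 0.19, adjusted p = 0.023). Mmgt1, a subunit of the ER membrane complex that inserts membrane proteins, was at 48.1, 47.8 and 35.8 CPM against 85.7, 69.4 and 136 CPM (1.12 ± 0.32, adjusted p = 0.026). No Eef1g-cKO library of these 3 genes lay below a control library.

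The lower genes were Get4 and Dpm3. Get4, part of the cytosolic complex that hands tail-anchored proteins to the ER, was at 42.7, 38.3 and 41.4 CPM in control libraries and at 10.5, 12.2 and 9.27 CPM in Eef1g-cKO libraries (log2 fold change −1.90 ± 0.46, adjusted p = 0.0089). The 6 tested genes of tail-anchored protein insertion had log2 fold changes from −1.90 to −0.29, with a median of −1.0, and Get4 was the 1 that passed. Dpm3, a subunit of the enzyme that makes the mannose donor, was at 29.0, 19.9 and 20.7 CPM against 4.85, 4.70 and 3.09 CPM, close to the detection limit (−2.39 ± 0.63, adjusted p = 0.016). Its Eef1g-cKO libraries were all under the filter on low counts, so, like Dpagt1, it was tested only through its control libraries, and its call is no support for a difference. Of 9 tested genes of the ER membrane complex, Mmgt1 was the 1 that passed. Of 3 tested OST subunits that are not members, 0 passed. The median over all 50 was 0.09. Without control replicate 1, 2 or 3 the list gave 1, 1 and 2 higher and 0, 1 and 1 lower genes, and Calr was the 1 gene called in every fit that left out a library. Those fits without a control library called 4.08%, 4.28% and 4.42% of all tested genes higher and 2.52%, 2.73% and 2.74% lower. Without control replicate 1, adjusted p-values were 0.071 (Canx), 0.11 (Uap1), 0.11 (Tmco1), 0.067 (Mmgt1), 0.051 (Get4) and 0.11 (Dpm3). Tmco1 was also lost without Eef1g-cKO replicate 1 (0.12), and Mmgt1 without Eef1g-cKO replicate 3 (0.073).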

How the data were processed

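Polyadenylated RNA of sorted L/Z spermatocytes was amplified as full-length cDNA and sequenced as 150 bp paired-end reads without molecular identifiers. Per the submitters' processing notes and the file, the authors used fastp, HISAT2 2.2.1 and featureCounts 2.0.6 on GRCm38 (mm10) and deposited unnormalised counts of reads for each Ensembl gene, 1 column a library. DESeq2 is also named there. Strand use and the handling of reads with several alignments are not given in the sources used here. Groups and replicate numbers come from sample titles, and columns were matched by name. Chi-square per degree of freedom between any 2 libraries was at least 6.37, so no library was a copy of another, and all 6 were kept. This check does not look for outlying libraries. Within groups it ran from 6.37 to 8.78 in control and from 8.51 to 19.2 in Eef1g-cKO libraries, highest between replicates 2 and 3.

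Members and lists were chosen with earlier results of these data known, so no p-value of a gene is adjusted over a list alone. Counts were analysed with edgeR 4.0.16 (R 4.3.3): filterByExpr (minimum count 10, total 15), TMM scaling, and the robust quasi-likelihood F test with genotype as the only term, adjusted over 8513 genes. SE is the size of the log2 fold change over the root of its F statistic, and CPM uses TMM-scaled library sizes. Paralog pairs were compared by exact permutation, adjusted over the 4 comparisons. The fit was also run on counts simulated from its own model. The changes put into them were larger than those of most members called here, so that run does not test detection of such changes.

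Every member is accounted for. Libraries are given singly for members that passed and for paralog pairs, other pathway genes by smallest adjusted p (at most 5 a direction), and Eef1g as the deleted gene; a few further members are given by library after their values were seen. Genes overlapping members are named for that reason alone. Alternatives were DESeq2 1.42.0, limma-voom 3.58.1 with quality weights, scaling by RLE, by upper quartile or by library totals, no filter or a filter of 10 reads in each library, non-robust estimation, a replicate block, a GC content offset, both together, leaving out each library, and a pseudocount of 1 read for ratios. GENCODE mouse release M21 gave exon overlaps and GC content; of 54409 shared gene IDs 98.3% had the same position, as did 36 of 37 members. Promoter windows are from RefSeq (GRCm38.p6).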

Additional observations from a re-analysis of the deposited data

How the results depend on the processing

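Members called higher numbered 7. They were 3 under upper-quartile scaling, 1 under library totals, 3 when 10 reads were required in each library (strict filter), 4 with a replicate block, 4 with block and GC content offset, and 3 to 8 with single libraries left out. Of all tested genes, 5.44%, 3.91%, 8.78%, 5.83% and 4.98% were higher in these fits, and 4.08% to 8.57% with single libraries left out. Under the strict filter 30 members were tested, so their 3 higher calls were close to the background. Members called lower numbered 0, and 1 under upper-quartile scaling, library totals or the strict filter (Sec11a each time) and with limma-voom (Srpr). Of all tested genes, 7.51%, 7.55%, 7.20% and 7.69% were lower in these fits. The members' median of 0.20 was 0.080, 0.023, 0.12, 0.062 and 0.11 with upper-quartile scaling, library totals, the strict filter, limma-voom and the replicate block, and −0.037 to 0.19 with single libraries left out. The median of all genes moved from −0.05 to −0.17 with upper-quartile scaling, to −0.24 with library totals and to −0.30 with no filter; members minus all genes stayed between 0.036 and 0.44. Other pathway genes called higher numbered 5, and 3, 0, 3, 2, 3 and 3 with upper-quartile scaling, library totals, the strict filter, the replicate block, the GC offset, and block and offset together (1 to 6 with libraries left out). The shares of all tested genes are those given for the members, with 6.59% higher under the GC offset alone. Other pathway genes called lower numbered 2, and 0 with the strict filter and with block and offset together (0 to 2 with libraries left out). Of all tested genes, 7.20% and 3.27% were lower in these fits, and 2.52% to 6.86% with single libraries left out. Eef1g had −0.64 without the filter (adjusted p = 0.084), −0.69 with the replicate block (0.058), −0.45 with the GC offset (0.16) and −0.46 with both (0.23), and −0.75 to −0.56 with libraries left out. The cause of these changes was not tested.

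Signs turned only in members that did not pass. Srprb had −0.028 under upper-quartile scaling, −0.082 under library totals and −0.033 under the strict filter. Limma-voom gave 0.062 for Srp68, −0.32 for Stt3a and 0.000331 for Alg5. The GC offset gave 0.16 for Srp68, 0.30 for Sec61b and 0.18 for Rpn1, and together with the replicate block 0.14 for Srp68, 0.30 for Sec61b, 0.18 for Rpn1 and −0.10 for Stt3a. With single libraries left out, the ranges that crossed 0 were −3.01 to 0.036 (Srp54a), −0.38 to 0.13 (Srp68), −0.27 to 0.30 (Srprb), −0.24 to 0.032 (Ssr1), −0.025 to 0.74 (Ssr2), −0.091 to 0.46 (Dad1), −0.017 to 0.64 (Stt3a) and −0.54 to 0.27 (Alg5).

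Deviations from the group means of same-numbered libraries had correlations across genes of −0.031, 0.014 and −0.039. Counting noise in genes with few reads can bring such values near 0, so they cannot exclude a pairing by replicate number. The replicate block is therefore given as an alternative. With the block, all genes gave 496 higher and 377 lower calls in place of 664 and 512. With 3 libraries a group and a detection limit of up to 4.63 CPM, Alg1, Alg2 and Dpagt1 could not be compared with precision.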
